A study of Homo sapiens with 8 samples.

Results

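Lysophosphatidic acid (LPA) is a small lipid that signals between cells. Autotaxin, a secreted enzyme encoded by ENPP2, makes most extracellular LPA by removing choline from lysophosphatidylcholine, which phospholipases release from membranes and lipoproteins. LPA then acts on G protein coupled receptors (the LPAR genes) that drive migration and cytokine production, and it is known as an activating factor in the ascites of ovarian cancer patients. The genes described here are the autotaxin gene ENPP2, the receptor genes LPAR1, LPAR2, LPAR3, LPAR5 and LPAR6, and the genes of 2 secreted enzymes that cut phospholipids, the phospholipase PLA2G5 and the endothelial lipase LIPG. They were taken by gene symbol from the deposited table, using the brightest transcript cluster (group of probes for 1 gene) per symbol. Of the 8 genes, 6 were measured, each by 1 cluster, among 17709 clusters with a gene symbol. LPAR2 and LPAR5 were not listed in the supplied probe annotation and were not analysed here. The 8 genes were picked with the differences between the BORA and EV tumours known, so those differences are given as a description, with no test.

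The tumours grew in nude mice from SK-OV-3, a human ovarian cancer line. Nude mice lack a thymus and with it mature T cells, while their other blood and connective tissue cells remain, so host RNA may be present. How far these human probes read mouse transcripts was not measured. In 4 tumours the cells carried pIND_BORA, a vector that overexpresses BORA, the cofactor through which Aurora A activates the mitotic kinase PLK1. In the other 4 they carried pIND_EV, the empty vector. Each tumour gave 1 Affymetrix array of total RNA, with values taken as log2 signals. Nothing in the labels ties a tumour to its own mouse or to its own transfected pool, and p-values therefore reflect only how these samples vary, some of which may be technical. In tumour RNA, fewer cells of a type and less RNA per cell cannot be told apart.

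BORA itself was at 12.55 or more in every BORA tumour and at 7.32 or less in every EV tumour. All 5 measured ovarian carcinoma markers (PAX8, EPCAM, KRT8, KRT18 and MUC1) were bright on every array, with a list mean of 13.60 to 13.85 in BORA tumours and 12.23 to 14.03 in EV tumours. EV tumour 1 stood apart. It correlated with the other arrays at 0.943 to 0.954 over all clusters, while the other 7 correlated with each other at 0.981 to 0.992. Its mean level of 10 squamous epithelium markers was 12.99, against 5.77 to 6.18 in EV tumours 2 to 4. The differences of the members and of the other genes named are therefore given with all 8 arrays and with the 7 arrays without EV tumour 1. Brightness was judged against the 95th percentile of 612 negative control probe sets on the same array, which was 7.62 to 8.13 in BORA arrays and 7.82 to 8.24 in EV arrays.

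ENPP2 had the widest spread of the 6 measured genes and was higher in every BORA tumour than in any EV tumour. It was at 10.39, 8.30, 8.30 and 6.83 in BORA tumours 1 to 4, against 4.43, 5.22, 4.62 and 5.68 in EV tumours 1 to 4. The BORA tumours spanned 3.56 log2 units among themselves, with tumour 1 far above and tumour 4 far below the others, while the EV tumours spanned 1.25. The lowest BORA tumour lay 1.16 above the highest EV tumour, both under the negative control percentile of their own array. The log2 difference, BORA minus EV, was 3.47 (SE 0.63, n = 4 each) with 8 arrays and 3.28 (SE 0.62) with 7. ENPP2 exceeded the negative control percentile in BORA tumours 1 to 3 only, so its levels in BORA tumour 4 and in the EV tumours are bounds. Set against that percentile in the EV arrays, it was 1.37-fold higher in BORA tumours with 8 arrays and 1.44-fold with 7. BORA tumour 4 entered these folds at its measured signal, so they are not strict minima. Leaving out 1 array at a time gave an 8-array difference of 2.82 (without BORA tumour 1) to 4.01 (without BORA tumour 4). Its sign could not change, since the groups did not overlap.

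**Figure D1:**
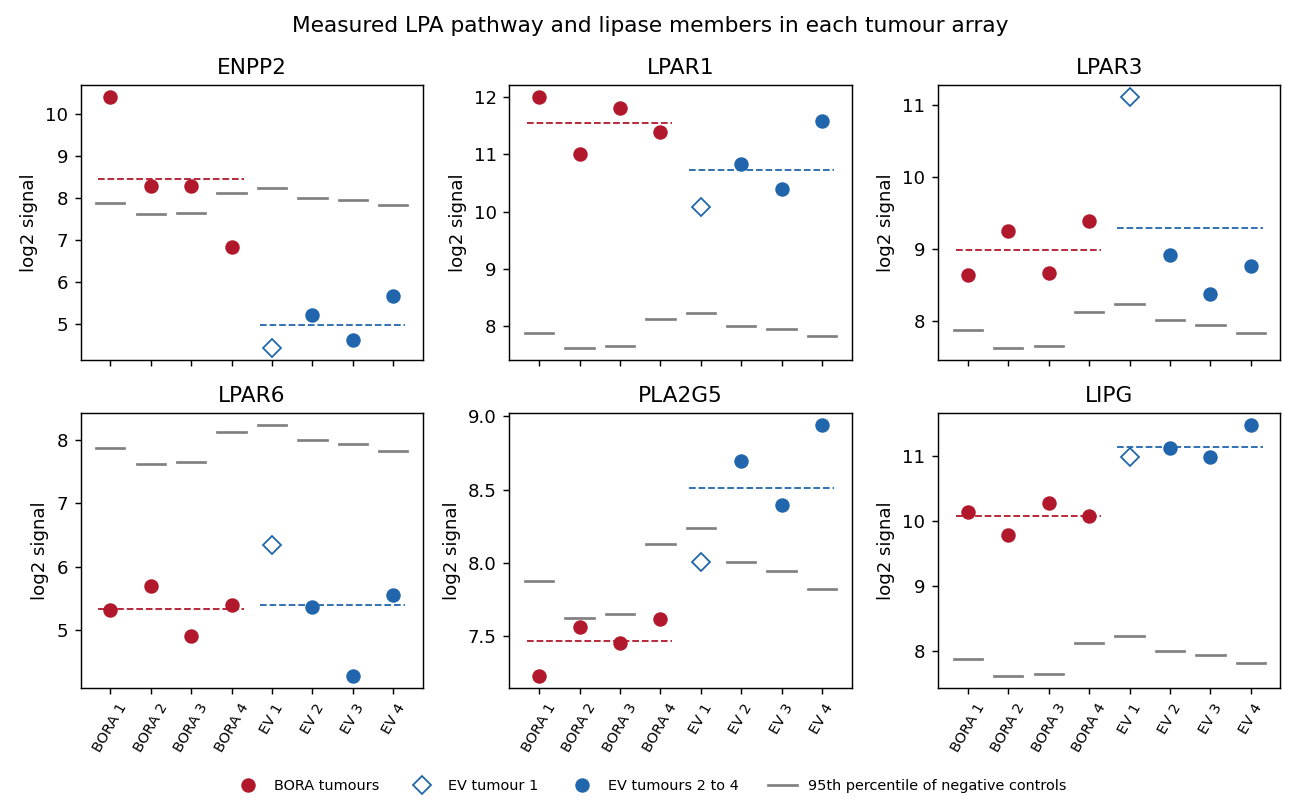
Log2 signal (vertical axis) of the 6 measured genes in each of the 8 tumour arrays (horizontal axis), with group means as dashed lines over all 4 tumours of a group and the 95th percentile of the negative controls of each array as grey bars. ENPP2 lies higher, and PLA2G5 and LIPG lower, in all BORA tumours than in all EV tumours, while EV tumour 1 has the highest LPAR3 value, 11.11.

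PLA2G5 and LIPG were both lower in every BORA tumour than in any EV tumour. PLA2G5 encodes group V phospholipase A2, a small secreted enzyme that frees a fatty acid and a lysophospholipid from phosphatidylcholine. Its signal was 7.23, 7.56, 7.45 and 7.61 in BORA tumours 1 to 4, against 8.01, 8.70, 8.39 and 8.94 in EV tumours 1 to 4. The groups were 0.393 apart at their nearest, and EV tumour 1 was the lowest of the EV tumours. The log2 difference was -1.05 (SE 0.21, n = 4 each) with 8 arrays and -1.21 (SE 0.18) with 7. PLA2G5 was under the negative control percentile in all 4 BORA tumours and in EV tumour 1. Against that percentile in the BORA arrays it was 1.61-fold lower in BORA tumours with 8 arrays and at least 1.81-fold lower with 7. EV tumour 1 entered the 8-array fold at its measured signal, so that fold is not a strict minimum.

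LIPG encodes endothelial lipase, a phospholipase of the lipoprotein lipase family that acts on high-density lipoproteins. Unlike PLA2G5 it was well above the negative controls on every array. It was at 10.14, 9.79, 10.28 and 10.09 in BORA tumours 1 to 4, against 10.997, 11.13, 10.98 and 11.48 in EV tumours 1 to 4. The BORA tumours spanned 0.491 and the EV tumours 0.496, and the nearest BORA and EV tumours were 0.704 apart. The log2 difference was -1.07 (SE 0.17, n = 4 each), a 2.10-fold lower signal in BORA tumours, and -1.12 (SE 0.19) with 7 arrays. EV tumour 1 lay within the range of the other EV tumours for this gene, and leaving out 1 array at a time gave -1.14 to -0.96.

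The promoters of PLA2G5 and LIPG are printed because both genes were lower in all BORA tumours. Each is the 250 bases before the RefSeq transcription start, 5′ to 3′ on the gene's strand, GRCh38.p14. That of PLA2G5 is chr1:20069944-20070193 (plus strand) and that of LIPG is chr18:49561807-49562056 (plus strand). Capitals mark matches, on either strand, to the motifs searched. These were the TATA box TATAAA, the CCAAT box, the AP-1 site TGANTCA and the GC box GGGCGG.
PLA2G5: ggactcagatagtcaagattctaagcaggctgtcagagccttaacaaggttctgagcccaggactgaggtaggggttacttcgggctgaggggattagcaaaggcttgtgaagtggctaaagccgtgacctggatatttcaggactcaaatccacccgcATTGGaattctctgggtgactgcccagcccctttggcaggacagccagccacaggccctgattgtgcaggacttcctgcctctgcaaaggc
LIPG: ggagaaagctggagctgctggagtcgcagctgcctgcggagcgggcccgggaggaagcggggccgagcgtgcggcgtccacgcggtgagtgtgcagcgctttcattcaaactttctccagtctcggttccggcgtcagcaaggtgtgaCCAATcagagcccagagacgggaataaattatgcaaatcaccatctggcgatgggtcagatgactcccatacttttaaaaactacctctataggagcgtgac
Each held 1 CCAAT match, starting 102 bases before the start in LIPG and, on the opposite strand, 91 bases before it in PLA2G5. No match to the other 3 motifs was found in either window, so no motifs overlapped. Over 35116 RefSeq promoter windows of this length, 32.0% held CCAAT, 10.7% TATAAA, 6.57% TGANTCA and 42.6% GGGCGG. Their GC contents were 54.4% in PLA2G5 and 57.2% in LIPG, against a median of 58.0%. These letters describe the windows and were not tested against the expression values.

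The receptors did not separate the groups. LPAR1 encodes a widely expressed LPA receptor that couples to Gi, Gq and G12/13 proteins. It was at 11.99, 11.01, 11.81 and 11.38 in BORA tumours 1 to 4, against 10.07, 10.84, 10.40 and 11.59 in EV tumours 1 to 4. BORA tumours lay toward the upper end, but EV tumour 4 exceeded BORA tumours 2 and 4. The log2 difference was 0.82 (SE 0.33) with 8 arrays and 0.61 (SE 0.30) with 7, and leaving out a further EV tumour from the 7 gave 0.33 without EV tumour 3 and 0.93 without EV tumour 4. With EV tumour 1 kept, it was 1.11 without EV tumour 4.

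LPAR3, a receptor gene with a more restricted tissue pattern, was bright on all 8 arrays. It was at 8.64, 9.25, 8.67 and 9.39 in BORA tumours 1 to 4, against 11.11, 8.91, 8.37 and 8.76 in EV tumours 1 to 4. EV tumour 1 held the highest value of all arrays, and the other values overlapped between the groups. The sign of the difference turned on that array (and with array weights), -0.30 (SE 0.53) with it and 0.31 (SE 0.23) without it.

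LPAR6, a receptor of the P2Y family that couples to G12/13 and is known from inherited hair loss, stayed under the negative control percentile on all 8 arrays. It was at 5.32, 5.70, 4.91 and 5.39 in BORA tumours 1 to 4, against 6.35, 5.37, 4.28 and 5.56 in EV tumours 1 to 4. Again EV tumour 1 was the highest, and no fold is given because both groups were under the percentile. The log2 difference was -0.06 (SE 0.38) with 8 arrays and 0.26 (SE 0.30) with 7.

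No limma call is given for the 6 genes. The groups did not overlap for ENPP2, higher, where 4.45% of clusters behaved so with 8 arrays and 6.66% with 7. They did not overlap for PLA2G5 and LIPG, lower, where the shares were 4.91% and 7.68%. Nothing is read from these counts, since the same contrast guided the choice of the genes.

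The wider LPA and lipase pathway was examined through 9 lists grouped by function, 90 distinct genes of which 81 were measured. Their p-values come from the limma fits over all 17709 clusters with Benjamini-Hochberg adjustment. With 8 arrays 0 of the 81 passed (adjusted p under 0.05), where 0.102% of all clusters were higher and 0% lower in BORA tumours. With 7 arrays 1 rose and 0 fell, where 0.435% of all clusters were higher and 0.0791% lower. Without adjustment (limma p under 0.05), 14 of the 81 (17.3%) lay higher and 5 (6.17%) lower with 8 arrays, against 1305 (7.37%) and 1269 (7.17%) of all clusters. With 7 arrays 13 lay higher and 8 lower, against 1363 and 1350 of all clusters. The median log2 difference over the 81 genes was -0.01 with 8 arrays and 0.03 with 7, against -0.03 over all genes in both. The groups did not overlap for 4 of the 81, higher, and 4, lower, with 8 arrays, against 4.45% and 4.91% of all clusters. With 7 arrays these counts were 9 and 4, against 6.66% and 7.68% of all clusters. Both groups were under the negative control percentile for 41 of the 81.

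**Figure D2:**
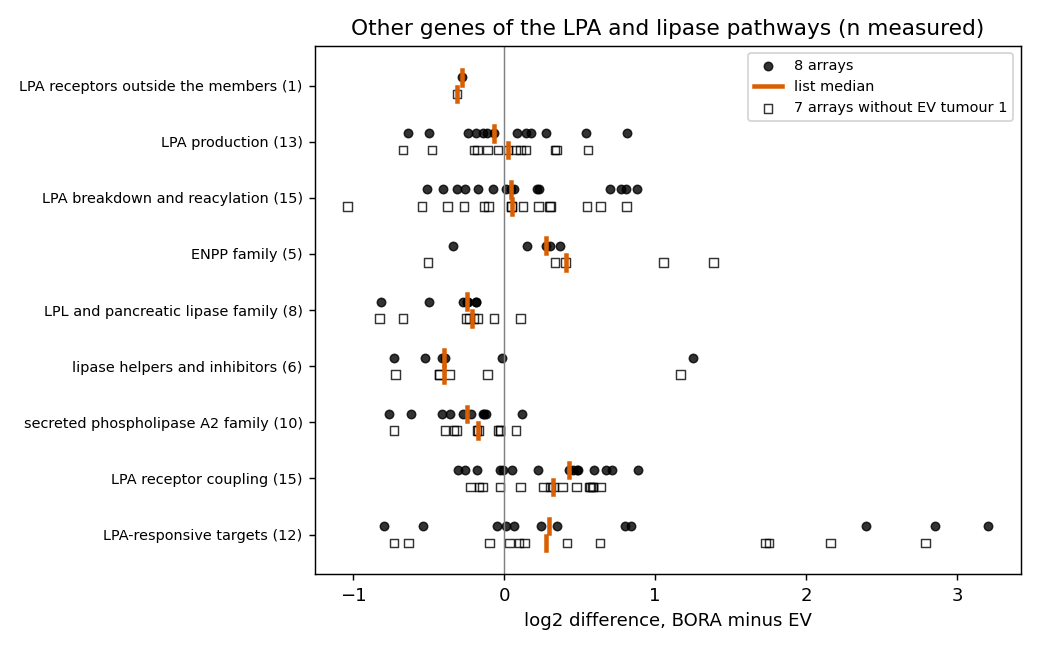
Log2 difference, BORA minus EV (horizontal axis), of each measured gene of the 9 function lists (rows, number measured in brackets), with 8 arrays (filled circles) and with 7 arrays without EV tumour 1 (open squares), and list medians as orange bars. The medians of the lists lie between -0.40 and 0.43, and the values farthest from 0 are those of the cytokine genes among the LPA-responsive targets.

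The gene that rose with 7 arrays was ENPP5, a relative of autotaxin in the ENPP family. It was at 7.46, 7.56, 7.50 and 7.42 in BORA tumours 1 to 4, against 11.03, 6.52, 6.45 and 5.32 in EV tumours 1 to 4. BORA tumours were nearly alike and lay above EV tumours 2 to 4, but EV tumour 1 was far above all of them. The log2 difference was 1.39 (SE 0.26, limma adjusted p = 0.049964) with 7 arrays and 0.15 (SE 1.01, adjusted p = 0.956) with 8, so the call depends on leaving out EV tumour 1, and it ended after quantile normalization. The means of BORA tumours and of all EV tumours were under the negative control percentile. ENPP4, which cleaves extracellular nucleotides, had a similar layout and did not pass with 7 arrays (1.06, SE 0.24, adjusted p = 0.0906), while with 8 it was at 0.30 (SE 0.64, adjusted p = 0.847). ENPP1, which makes pyrophosphate from ATP, was at 0.37 and ENPP3 at -0.34 with 8 arrays, and at 0.41 and -0.50 with 7. Of the 5 measured relatives 0 passed with 8 arrays.

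Of 13 genes listed under other routes to LPA, the ENPP relative ENPP6 included, 0 passed in either fit. DDHD1, a phosphatidic acid phospholipase, had a log2 difference of -0.64 (SE 0.24, limma adjusted p = 0.284) with 8 arrays and -0.48 with 7. GPAT3, which makes intracellular LPA from glycerol phosphate, was at 0.82 (SE 0.34, adjusted p = 0.326) with 8 arrays and 0.56 with 7. AGK, a mitochondrial lipid kinase, was at 0.54 with 8 arrays and 0.35 with 7. LIPI, a phospholipase that makes LPA from phosphatidic acid, was at -0.50 (SE 0.27) with 8 arrays and -0.67 with 7, and under the negative control percentile in both groups. The receptor gene LPAR4 was also under it, at 3.73 ± 0.40 in BORA tumours and 4.01 ± 0.09 in EV tumours (SD, n = 4 each), with an adjusted p of 0.541 in limma with 8 arrays and 0.534 with 7.

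Among 15 measured genes listed under LPA breakdown or its turning into phosphatidic acid, 0 passed in either fit. The list also holds the family relatives PLPPR1 to PLPPR5, whose action on LPA was not examined. AGPAT1, an acyltransferase that uses LPA, was higher in all 4 BORA tumours, at 11.02, 10.37, 10.43 and 10.39, against 9.46, 9.56, 9.82 and 9.83 in EV tumours 1 to 4 (log2 difference 0.88, SE 0.19, limma adjusted p = 0.135). PLPP3, a lipid phosphatase at the cell surface that inactivates LPA, was at 9.84, 10.41, 10.43 and 10.01 in BORA tumours, against 8.997, 9.68, 9.23 and 9.69 in EV tumours 1 to 4 (0.77, SE 0.21, adjusted p = 0.197). For both genes the groups did not overlap, as for 4.45% of all clusters (higher, 8 arrays), with EV tumour 1 the lowest array. AGPAT4 (0.70, SE 0.22) did overlap. With 7 arrays the differences were 0.81 for AGPAT1 (adjusted p = 0.101), 0.64 for PLPP3 (0.184) and 0.55 for AGPAT4.

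The lipase relatives of LIPG and PLA2G5 were dim. All 8 measured genes of the lipoprotein lipase and pancreatic lipase family were under the negative control percentile in both groups, LPL among them at 5.64 ± 0.18 in BORA tumours and 5.89 ± 0.21 in EV tumours (SD, n = 4 each). PNLIP had the smallest p of this family (log2 difference -0.81, SE 0.20, limma adjusted p = 0.166, and -0.82 with 7 arrays). Of 10 measured genes of the secreted phospholipase A2 family and its receptor, 8 were under the percentile in both groups and 0 passed. PLA2G2A, the inflammatory secreted phospholipase, was at -0.62 (SE 0.28, adjusted p = 0.346) and PLA2G2D at -0.41, and with 7 arrays they were at -0.73 and -0.39.

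Proteins that help or block these lipases did not pass either (0 of 6). APOA5, a plasma activator of lipoprotein lipase, was at -0.73 (SE 0.15, limma adjusted p = 0.129), and GPIHBP1, which anchors that lipase to capillaries, at -0.41 (SE 0.16), and with 7 arrays they were at -0.72 (adjusted p = 0.0943) and -0.43. Both were under the percentile in both groups. ANGPTL4, an inhibitor of lipoprotein lipase picked here after its values were seen, was at 5.97, 9.22, 9.51 and 8.63 in BORA tumours 1 to 4, against 6.84, 7.82, 7.35 and 6.32 in EV tumours 1 to 4. BORA tumour 1 was the lowest of all 8 and the other BORA tumours were the highest. Its log2 difference was 1.25 (SE 0.70, adjusted p = 0.438) with 8 arrays and 1.17 (SE 0.70, adjusted p = 0.465) with 7.

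Genes of the signalling steps after LPA receptors, G protein subunits and YAP1 among them, had a median log2 difference of 0.43 with 8 arrays and 0.33 with 7, and 0 of 15 passed. YAP1, a transcriptional coactivator switched on by G12/13 signals, was at 11.22, 11.32, 11.28 and 11.28 in BORA tumours 1 to 4, against 10.28, 10.86, 10.60 and 10.67 in EV tumours 1 to 4 (log2 difference 0.67, SE 0.15, limma adjusted p = 0.150). The BORA values were nearly alike and all above the EV values, as for 4.45% of all clusters. GNA11, a Gq-class subunit, was at 0.72 (SE 0.24). With 7 arrays both YAP1 and GNA11 were at 0.57.

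Cytokine genes that LPA is known to induce in ovarian cancer cells were laid out differently from ENPP2 in BORA tumour 1. CXCL8, a neutrophil chemokine, was at 10.81, 14.44, 15.10 and 13.56 in BORA tumours 1 to 4, against 9.02, 10.79, 9.96 and 11.32 in EV tumours 1 to 4. IL6 was at 6.42, 11.02, 11.88 and 10.08 in BORA tumours, against 4.93, 8.58, 6.45 and 8.04 in EV tumours. BORA tumour 1, which had the highest ENPP2 signal, had the lowest CXCL8 and IL6 of the BORA tumours, inside the EV range for both. Among BORA tumours 2 to 4, CXCL8 and IL6 were lowest in tumour 4, as ENPP2 was, under the negative control percentile there. Their log2 differences were 3.21 (SE 0.86, limma adjusted p = 0.188) and 2.85 (SE 1.16, adjusted p = 0.314), and with 7 arrays 2.79 and 2.16. CXCL1, another neutrophil chemokine, was at 2.3995 (SE 0.82) with 8 arrays and 1.73 (SE 0.63) with 7. CCN1, a matrix protein induced through YAP, was at 0.84 (SE 0.39) with 8 and 0.64 (SE 0.37) with 7. Of the 12 measured targets 0 passed in either fit. The part of ENPP2 or of LPA in these values was not tested.

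**Figure D3:**
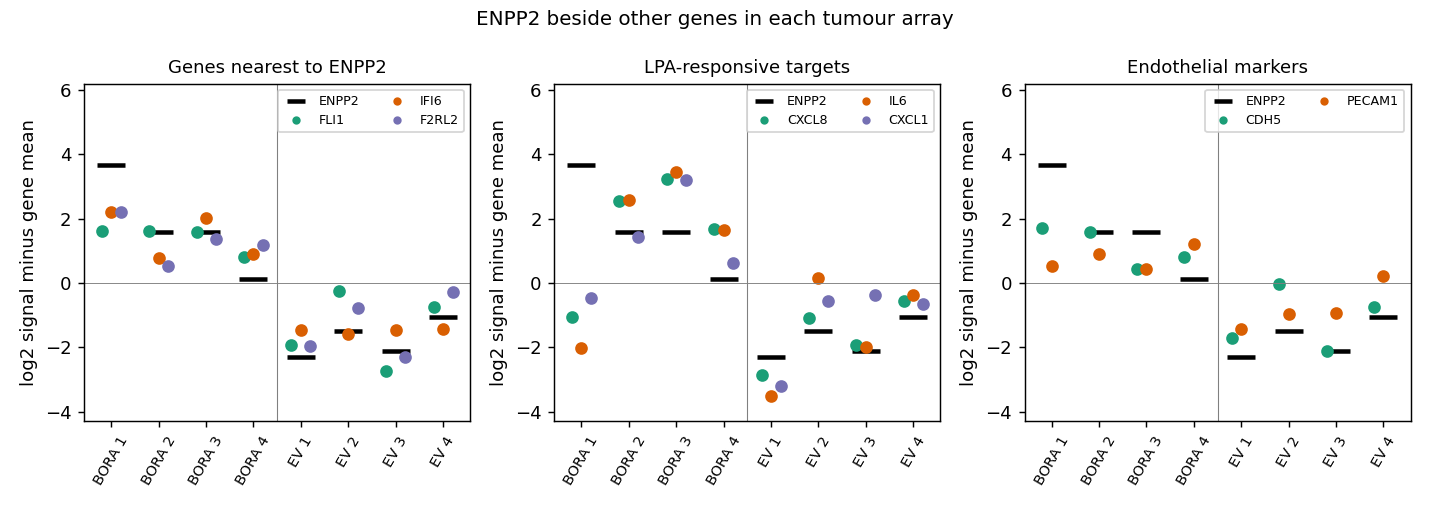
Log2 signal of each gene minus its own mean over the 8 arrays (vertical axis) in each tumour (horizontal axis), with ENPP2 as black bars beside its 3 nearest genes (left), 3 LPA-responsive cytokine genes (middle) and 2 endothelial markers (right). The other endothelial markers, CLDN5, TEK, VWF, EMCN and KDR, are not drawn and had differences below 0 in both fits. BORA tumour 1 has the highest ENPP2 value and the lowest CXCL8, IL6 and CXCL1 values of the BORA group. Among BORA tumours 2 to 4, ENPP2 and these 3 cytokine genes are all lowest in tumour 4.

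The genes whose layout over the 8 arrays was nearest to that of ENPP2 were FLI1, IFI6 and F2RL2. Nearness was the mean absolute difference between 2 genes after each was centred on its own mean, among genes above the negative control percentile in at least 1 group. It was 0.668 log2 units for FLI1, an ETS transcription factor of endothelial and blood cells, 0.680 for IFI6, an interferon-induced gene, and 0.721 for F2RL2, a thrombin receptor gene. Like ENPP2, each of the 3 was highest in BORA tumour 1. F2RL2 was at 10.66 there, IFI6 at 12.345, and FLI1 at 8.60, barely above its 8.59 in BORA tumour 2. For F2RL2, EV tumours 2 and 4, at 7.68 and 8.17, were closer to the BORA range than those of ENPP2. For LPAR3 the nearest genes were MTSS1, an actin-binding scaffold (0.112), SFN, the epithelial 14-3-3 sigma (0.166), and DDR1, a collagen receptor kinase (0.174). All 3 were highest in EV tumour 1, MTSS1 at 10.44 there, against 8.05 to 8.62 in BORA tumours and 7.62 to 8.27 in EV tumours 2 to 4. LPAR1, PLA2G5 and LIPG spanned under 2 log2 units and LPAR6 was dim, so no such genes were sought for them.

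Endothelial cells, fibroblasts and fat cells can express ENPP2, and endothelial cells LIPG, so their markers were set beside them. Of 7 endothelial markers 0 had a mean over the 7 arrays, both groups pooled, above the negative control percentile. Taken by group, the PECAM1 mean in BORA tumours, 8.11, was above the mean percentile of the BORA arrays, 7.82. The list mean was 5.49 to 5.91 in BORA tumours and 5.19 to 5.80 in EV tumours. The brightest, PECAM1, an endothelial adhesion gene, was at 7.86, 8.24, 7.78 and 8.55 in BORA tumours 1 to 4, against 5.90, 6.37, 6.40 and 7.54 in EV tumours 1 to 4. CDH5, the endothelial cadherin gene, which was picked after its values were seen, was at 8.30, 8.18, 7.03 and 7.38 in BORA tumours, against 4.89, 6.56, 4.48 and 5.86 in EV tumours. For both the lowest BORA tumour was above the highest EV tumour, as for 4.45% of all clusters. PECAM1 exceeded the percentile on 3 arrays and CDH5 on 2, all of them from BORA tumours. Their log2 differences were 1.56 and 2.28 with 8 arrays (limma adjusted p = 0.137 and 0.129) and 1.34 and 2.09 with 7 (adjusted p = 0.0830 and 0.0731), so neither passed. The other 5 markers had differences below 0 in both fits, none of them passing: with 8 arrays CLDN5 was at -0.49, TEK at -0.49, VWF at -0.33, EMCN at -0.20 and KDR at -0.06. KDR was the dimmest marker, averaging 3.17, and CLDN5, TEK, VWF and EMCN were under the percentile on every array. The part of these cells in the ENPP2 and LIPG values was not tested.

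Fibroblast markers (6 measured) had a list mean of 8.52 to 8.94 in BORA tumours and 7.89 to 8.84 in EV tumours, with COL1A2 the brightest (mean 15.33) and PDGFRB the dimmest (4.98). LUM, picked after its values were seen, was at 10.22, 10.42, 9.26 and 10.94 in BORA tumours 1 to 4. In EV tumours 1 to 4 it was at 11.83, 8.48, 9.25 and 6.70. Its log2 difference was 1.14 (SE 0.90) with 8 arrays. With 7 it was 2.07 (SE 0.53, limma adjusted p = 0.112) and did not pass. COL1A1 was above 0 in both fits, and PDGFRA, PDGFRB and DCN were below 0. COL1A2 was at 0.06 with 8 arrays and -0.17 with 7. The adipocyte list (5 measured) was at 3.70 to 3.92 in BORA tumours and 3.93 to 5.82 in EV tumours, with ADIPOQ the dimmest (3.46). FABP4, at 12.41 in EV tumour 1, was the only adipocyte marker above the percentile, and only there. Macrophage and leukocyte markers (6 measured) averaged 7.12 to 7.56 in BORA tumours, against 7.80 to 8.48 in EV tumours 2 to 4 and 6.87 in EV tumour 1. AIF1 was the dimmest. PTPRC, the pan-leukocyte gene CD45, was the brightest, at 10.83, 9.68, 10.96 and 10.09 in BORA tumours 1 to 4, against 6.91, 12.19, 12.24 and 12.94 in EV tumours 1 to 4. EV tumours 2 to 4 were above every BORA tumour and EV tumour 1 was below all of them. With 7 arrays PTPRC fell by 2.07 on the log2 scale (SE 0.31, limma adjusted p = 0.0194). With 8 it was at -0.68 (SE 1.14, adjusted p = 0.803), so the call depends on leaving out EV tumour 1. CD68, picked after its values were seen, was bright on all 8 arrays and went the other way. Its log2 difference was 0.35 (SE 0.27) with 8 arrays and 0.38 (SE 0.28) with 7, and the groups overlapped. CD163, CSF1R, ITGAM and AIF1 were below 0 in both fits, with group means under the percentile. The mean of this list was lower in all BORA tumours than in EV tumours 2 to 4, as PLA2G5 and LIPG were. Of its genes only PTPRC and CD163 were so, CD163 barely (6.24 in BORA tumour 3 against 6.26 in EV tumour 4). CD68, CSF1R, ITGAM and AIF1 overlapped. The list mean was not lower than in EV tumour 1, where PLA2G5 and LIPG were above every BORA tumour. The part of leukocytes in those values was not tested.

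**Figure D4:**
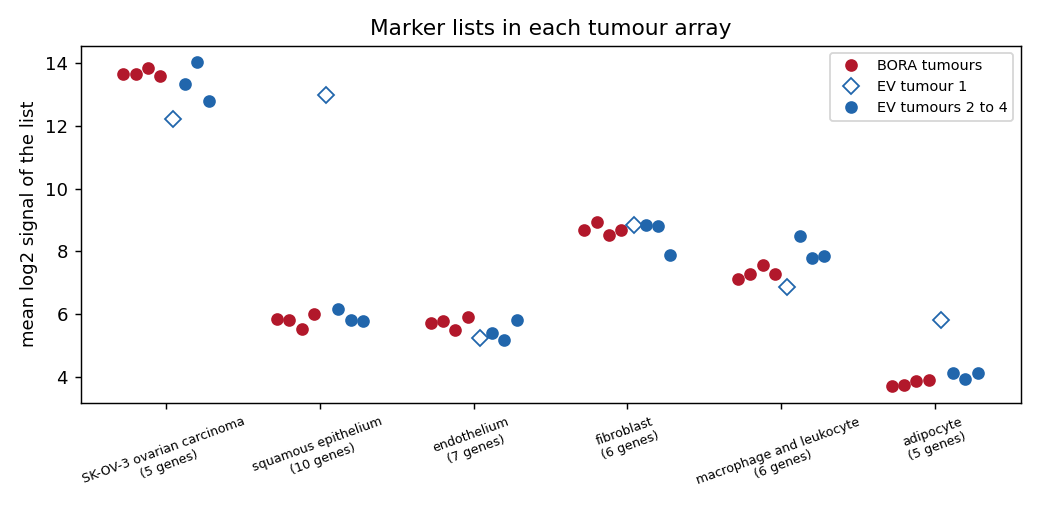
Mean log2 signal (vertical axis) of the measured genes of 6 marker lists (horizontal axis) in each tumour array, BORA tumours in red and EV tumours in blue, with EV tumour 1 as an open diamond. The ovarian carcinoma list is bright in all 8 arrays, and EV tumour 1 is far above the others for squamous epithelium, 12.99.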

How the data were processed

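RNA of 8 xenograft tumours was read on Affymetrix arrays, 1 per tumour, and each tumour's group and number come from its label. The table the authors deposited has 1 log2 value per probe set and array (24351 rows). Affymetrix Expression Console was used, per the submitters' processing notes. Not given in the sources used here are its version, its background correction and normalization, the log base and the genome build. The log2 reading rests on the range of the deposited values. The array named in the series' design text (Human Gene 1.0 ST) is not the design that the row identifiers belong to.

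The supplied annotation gives 1 symbol for 17709 clusters and several for 0. A further 3739 clusters are unnamed here and 2903 rows are controls. Symbols were updated through a RefSeq table of GRCh38.p14. No pair of arrays had more than 0.0123% of rows with exactly equal deposited values (no rounding or tolerance).

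All named clusters were fitted with limma 3.58.1 in R 4.3.3 (lmFit and eBayes, no covariates), with Benjamini-Hochberg adjustment, a threshold of 0.05, no further normalization and no filter. No scan date or slide was available as a batch. The genes described, the lists and the 7-array setting were chosen with earlier results of these data known. Named genes were the 8 members, list genes that passed, up to 4 others per list with the smallest p, the 3 nearest genes of each bright member that spanned over 2 log2 units, and the brightest and dimmest marker of each list. Folds against the percentile set the bright group's mean against the dim group's mean of, per array, the higher of the gene's signal and the negative control percentile. Arrays of the bright group entered at their measured signal, also where that was under the percentile. Same-numbered tumours correlated at -0.113 to 0.0713 in their deviations from group means, so the numbers were not taken as pairs.

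In simulated data with 17709 clusters, 41.8% of those changed by 1 log2 unit, 91.0% by 2 and 98.5% by 4 were recovered with 8 arrays, and 37.3%, 91.0% and 100% with 7, with 5 and 9 false calls. The simulated noise was normal and drawn independently for each array, with cluster spreads from limma's fitted prior. No simulated array stood apart as EV tumour 1 did. These shares therefore check the fitting steps and do not give the recovery in the real tumours. Promoter sequences came from RefSeq, GRCh38.p14, which matched 7 of the 8 members.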

Additional observations from a re-analysis of the deposited data

Results flagged for a closer look

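In 3 of 26 groups of 4 values checked (BORA, the 6 measured genes and 6 marker lists in each group), 1 tumour lay far from the other 3, by a gap over range above Dixon's 95% limit. Chance gives about 1 in 20 such groups. The squamous epithelium markers of EV tumour 1 were at 12.99, against 5.77 to 6.18 in EV tumours 2 to 4 (gap over range 0.943). The adipocyte markers of EV tumour 1 were at 5.82, against 3.93 to 4.12 (0.897), through FABP4. The fibroblast markers of EV tumour 4 were at 7.89, against 8.82 to 8.84 in EV tumours 1 to 3 (0.975). LUM was at 6.70 there, against 8.48 to 11.83, and COL1A1 at 8.94, against 9.33 to 11.24. COL1A2 and PDGFRB were not lowest in that tumour. None of the 6 measured LPA pathway and lipase genes passed this limit in either group.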

How the results depend on the processing

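The differences of ENPP2, LPAR1, PLA2G5 and LIPG kept their sign under every alternative run for them and moved by less than 1 SD. For ENPP2, PLA2G5 and LIPG, leaving out an array could not turn the sign, since their groups did not overlap. The LPAR3 difference with 8 arrays was 0.31 without EV tumour 1, 0.095 with array weights and -0.61 to -0.18 without any other array. LPAR6 crossed 0 too. The replicate number as a block left 1 cluster higher with 8 arrays and 5 lower with 7, and 2 pathway genes higher with 7 (ANGPTL4 and CXCL8). Array weights gave 43 higher and 5 lower with 8 arrays and 24 lower with 7. Leaving out dim clusters, ENPP2 and LPAR6 among them, gave 9 higher with 8 arrays, and 34 higher, 6 lower and 0 pathway genes with 7. The intensity trend gave 1 lower with 8 arrays and 28 with 7, and testing all rows except controls gave 1 lower with 8 and 0 pathway genes with 7. Quantile normalization left 0 pathway genes with 7 arrays, and centring on medians left 46 clusters higher and 0 pathway genes. Leaving out 1 array at a time gave 1 to 77 clusters higher, 0 to 14 lower and 0 to 1 pathway genes higher with 8 arrays. With 7 it gave 24 to 106 higher, 1 to 46 lower, 0 to 2 pathway genes higher and 0 to 1 lower. The causes were not tested. Each gene described had 1 cluster, so averaging clusters changed nothing. The number of arrays limits the precision, and signals under the negative controls limit ENPP2, PLA2G5 and LPAR6.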
